A study of Caenorhabditis elegans with 4 samples.

Results

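The X chromosome of wild-type Caenorhabditis elegans embryos carried 440 MAU-2 sites, of 2063 sites on the 6 nuclear chromosomes. They were mapped in strain N2 by ChIP-seq, the sequencing of DNA that is precipitated with an antibody to a chromatin protein. Embryos of mixed stages, from a population of males and hermaphrodites grown at 20 °C, were cross-linked with 2% formaldehyde, and an affinity-purified rabbit polyclonal antibody was used to precipitate MAU-2. The samples were 2 ChIP replicates and 2 inputs, which share strain, genotype and stage, and files of the inputs were not analysed here. Whether each replicate was a culture of its own is not stated in the labels. A site is defined here as all X peaks that overlap by at least 1 bp, pooled from the lists of replicate 1 (418 X peaks), replicate 2 (159) and the series as a whole (212, called the series-wide list). How the series-wide list relates to the replicates is not given in the sources used here, so it is not counted as a replicate. Positions are on WormBase WS220, counted from 1, as in the deposited lists. The lists give no read numbers, so the depth behind them is unknown, and no gene annotation or genome of this build was used, so sites are named by position only.

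MAU-2 and its partner SCC-2 form the complex that loads cohesin onto chromosomes. Cohesin is a ring-shaped complex that holds sister chromatids together and organises chromatin into loops. The X of hermaphrodite worms is also bound by the dosage compensation complex, which lowers the expression of X-linked genes and contains a condensin, a ring complex related to cohesin. No dosage compensation protein was measured in these samples. The share of males is not given in the sources used here, so how far animals with a single X contributed to the sites is unknown.

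A minority of the X sites was shared by all the lists. All 3 lists held 121 of the 440 sites, or 27.5% (95% exact Clopper-Pearson interval 23.4 to 31.9), against a background of 25.1% of all nuclear sites. These 121 sites, each spanning all its joined peaks, took 53.6% of the bases covered on X, against 45.4% for such sites on the autosomes. The most common other kind was a site in replicate 1 alone, with 234 sites (53.2%, 48.4 to 57.9), against 50.2% of autosomal sites. A further 32 sites (7.27%, against 5.79% on the autosomes) were in replicate 1 and the series-wide list. Replicate 2 and the series-wide list shared 19 (4.32%, against 4.50%), and both replicates without the series-wide list 13 (2.95%, against 4.68%). The series-wide list alone held 18 sites (4.09%, against 8.69%) and replicate 2 alone 3 (0.68%, against 1.66%). All intervals cover counting error only and treat sites as independent, which close neighbours are not.

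Sites in all 3 lists had higher median scores than the other kinds, and were wider than those of replicate 1 alone. Their median width was 622 bp, with a range of 244 to 8279 bp, whereas sites in replicate 1 alone had a median of 217 bp. Sites in both replicates but not the series-wide list were nearly as wide, with a median of 605 bp, and those in replicate 2 and the series-wide list had 449 bp. A site spans all its joined peaks, and a wide peak meets other peaks more easily. These width differences therefore follow in part from the joining rule. At the 100 sites in all 3 lists with 1 peak in each list, the replicate 1 peaks by themselves had a median of 555 bp. The score is the one the authors' peak caller gave, on a scale that the files do not name and that differs between the replicate lists and the series-wide list. In replicate 1 the median score was 455 for sites in all 3 lists, 203 for sites in both replicates but not the series-wide list, 117 for sites shared with the series-wide list alone and 84.8 for sites of replicate 1 alone. In replicate 2 the median was 228 for sites in all 3 lists and 73.2 for sites shared with the series-wide list alone. The series-wide medians were 20.3 for sites in all 3 lists and 5.16 for sites in no replicate list. The ranges overlapped. A site of replicate 1 alone reached 635, and a site in all 3 lists scored as little as 51.8 in replicate 1.

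Score tracked whether a site was in all 3 lists. How the series-wide list relates to the replicates is unknown, so presence in it is not a separate finding of the site. When sites were divided into 4 classes of equal size by their replicate 1 score over all nuclear chromosomes, 7 of 107 X sites in the lowest class were in all 3 lists, or 6.54% (2.67 to 13.0). The second class gave 2.88%, the next 29.8%, and the highest 87.4% (79.0 to 93.3), with 83 of 95 sites. X sites of the highest class had scores of 279 or more. By series-wide score the share went from 23.5% of 34 sites in the lowest class to 96.9% of 65 sites (89.3 to 99.6) in the highest. By replicate 2 score it went from 47.5% of 40 sites to 97.8% of 45 sites. The autosomes showed the same rise from the lowest to the highest class, from 3.24% to 81.8% by replicate 1 score. There it went from 20.0% to 93.6% by series-wide score and from 32.9% to 97.1% by replicate 2 score.

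Replicate 2 was nearly a subset of the others on X. Of its 156 sites, 134 (85.9%, 79.4 to 90.9) were in replicate 1 and 140 (89.7%, 83.9 to 94.0) in the series-wide list. In the other direction, 134 of the 400 sites of replicate 1 (33.5%, 28.9 to 38.4) were in replicate 2. The autosomes gave near values for this pair of lists, with 82.5% and 34.2%. The series-wide list stood out more. On X, 153 of its 190 sites (80.5%, 74.2 to 85.9) were in replicate 1, compared with 491 of 705 on the autosomes (69.6%, 66.1 to 73.0). Without the densest 100 kb of each chromosome these shares were 80.1% (73.6 to 85.6) and 74.6% (71.0 to 78.0), so the intervals then overlapped. The difference between these shares was not tested.

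The share of sites in all 3 lists was not distinguishable between X and the autosomes under the main rule. It was 27.5% of 440 on X and 24.5% of 1623 on the autosomes, a difference of 3.04 percentage points (95% Newcombe interval -1.47 to 7.84, Fisher's exact test, two-sided, p = 0.19). Among single autosomes it ranged from 22.5% on I to 27.2% on V, just below X. The test treats sites as independent, which close neighbours are not, so the p values here may be too small. The difference between X and the autosomes depended on how sites were built. With peaks joined when within 1000 bp the difference was 7.17 points (Fisher's exact p = 0.015), and without the replicate 1 list it was 10.5 points (Fisher's exact p = 0.0073). With the replicate lists alone it was -0.07 points (Fisher's exact p = 1).

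The 10 leading X sites were taken as the 10 highest series-wide scores among sites in all 3 lists. All were wider than the median of 622 bp for sites in all 3 lists, and 6 of them were under 1000 bp. The first lay from 13306649 to 13307382, was 734 bp wide and scored 1217 in replicate 1, 1049 in replicate 2 and 99.0 in the series-wide list, where it was number 3 of all nuclear peaks. It was flanked by small replicate 1 sites of 192 and 117 bp, with scores of 95.1 and 50.6 and midpoints 497 and 960 bp away. The next lay from 13665154 to 13665940 and scored 2133, 916 and 83.6 in the same order of lists. Both are in the right part of X, at 75.1% and 77.1% of its length, and both outscored every other X site in the series-wide list.

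A group of sites of similar width followed. The site from 5707668 to 5708323 scored 1318 in replicate 1, 847 in replicate 2 and 66.2 in the series-wide list. That from 6207500 to 6208247 scored 1857, 767 and 59.7. It had no other site for 292 kb on its left side, one of the 3 largest empty stretches of X. That from 8404146 to 8404922 scored 1257, 681 and 59.5, and lay 18.2 kb from the nearest other site in all 3 lists. Of the 10, 6 were between 656 and 787 bp wide. A pair of leading sites lay 28.8 kb apart. The first of the pair, from 5056143 to 5057326, was 1184 bp wide and scored 2986, 2129 and 58.0, and the second, from 5085238 to 5085929, scored 790, 624 and 56.3.

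**Figure D1:**
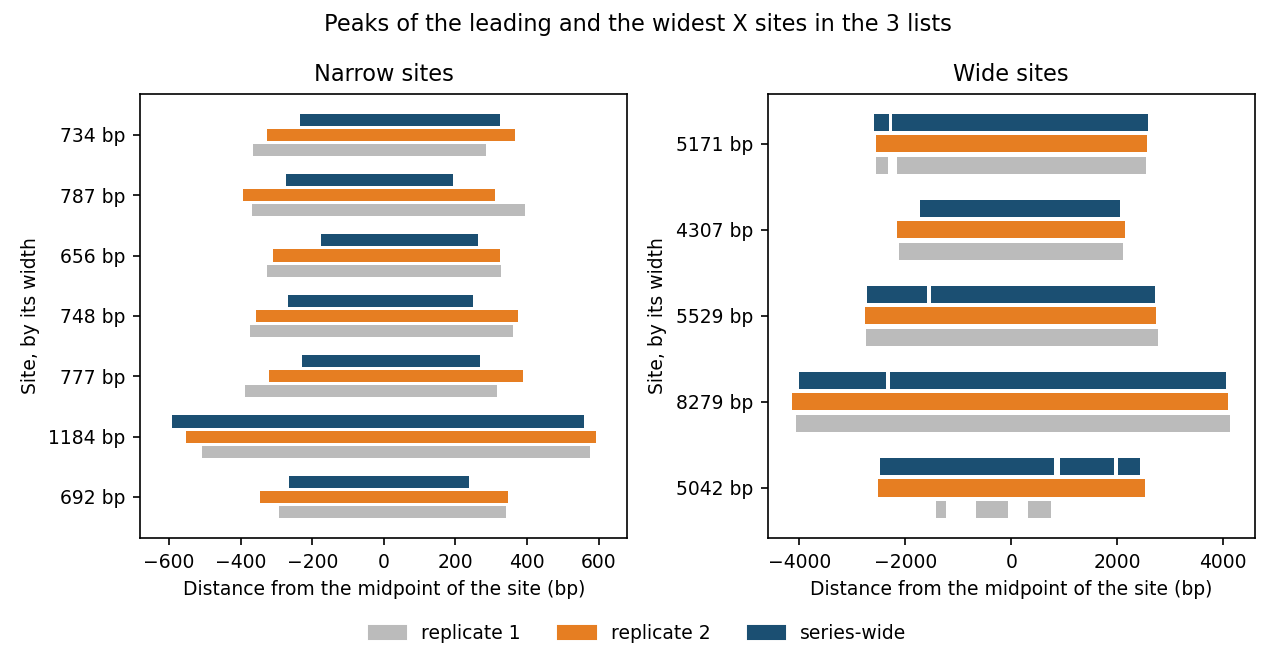
Extent of the peaks at the 10 leading and the 5 widest X sites (12 sites, since some are in both sets), as bars from the first to the last base of each peak relative to the midpoint of the site (bp). Each site is labelled with its width. The sites under 1000 bp wide have 1 peak in each list with nearly the same centre, and the series-wide peak is the shortest there. The 5042 bp site has 3 short peaks in replicate 1 and 1 peak across its whole width in replicate 2.

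Sites with a single peak in each list lay at nearly the same place in all of them. At 100 of the 121 sites in all 3 lists, each list held exactly 1 peak. The midpoints of the replicate peaks there were a median of 31.8 bp apart, and 88 of the 100 pairs lay within 100 bp. At 99 of these sites the 3 peaks had bases in common, with a median of 326 bp. Replicate 1 peaks were the widest, with a median of 555 bp, followed by 451 bp in replicate 2 and 337 bp in the series-wide list. At 55 of the 100 sites the series-wide peak lay wholly inside both replicate peaks. Overlaps that joined peaks were seldom marginal, but many sites lay close together without being joined. The smallest overlap that joined peaks of different lists on X was 7 bp, 10 of 495 such overlaps were under 50 bp, and the closest peaks left apart had 2 bases between them. Of the 439 pairs of neighbouring X sites, 46 had under 100 bp between them and 116 under 1000 bp. Joining peaks within 1000 bp left 324 X sites, of which 36.4% were in all 3 lists.

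Wide regions were few but held much of the covered sequence. On X, 13 sites were wider than 2000 bp, 11 of them in all 3 lists, and together they took 22.5% of the covered bases. The widest, from 10360910 to 10369188, was 8279 bp. It scored 1265 in replicate 1, 388 in replicate 2 and 26.2 in the series-wide list, where it was divided into 2 peaks. The site from 289816 to 295344, of 5529 bp, scored 2429, 373 and 59.2. That from 109129 to 114299, of 5171 bp, scored 3100 in both replicates and 66.7 in the series-wide list, and that from 15806979 to 15811285, of 4307 bp, scored 3100, 3041 and 63.5. A score of exactly 3100 was given to 8 X peaks in replicate 1 and 2 in replicate 2, so equal scores there do not show equal signal. Input files were not analysed here, so signal at these regions cannot be set against input.

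One wide region was read differently by the replicates. The site from 14384694 to 14389735, of 5042 bp, was a single replicate 2 peak with a score of 845, number 65 of that list. Replicate 1 held 3 peaks there, the widest 607 bp, and the highest scored 94.4, number 1114 of its list. The series-wide list also had 3 peaks, with a highest score of 20.1. A second site of this kind, from 11442287 to 11443759, scored 149 in replicate 1 and 689 in replicate 2, and was picked after its values were seen. The opposite also occurred. The site from 11788042 to 11789552 scored 3100 in replicate 1 and 251 in replicate 2. It was also picked after its values were seen.

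Scores of the replicates ranked the X sites alike. Over the 134 X sites in both replicate lists Spearman's rho was 0.81, given as a description since sites of a list share 1 library. On single autosomes it ranged from 0.63 on V to 0.82 on II. Against the series-wide list rho was 0.82 for replicate 1 over 153 sites and 0.87 for replicate 2 over 140 sites. Of the 134 sites, 80 scored at or above the list median in both replicates and 13 below it in both. A further 40 were high in replicate 1 and low in replicate 2, and 1 was the reverse. On the autosomes these numbers were 153 and 13 of 473 sites. The medians are those of all nuclear peaks of each list, 118 over 1879 peaks in replicate 1 and 135 over 762 in replicate 2. Since the lists differ in length, the medians are unlike cut-offs, and the imbalance is no measure of discordance. Wider sites scored higher, with rho of 0.64 in replicate 1, 0.71 in replicate 2 and 0.50 in the series-wide list over the 121 sites.

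**Figure D2:**
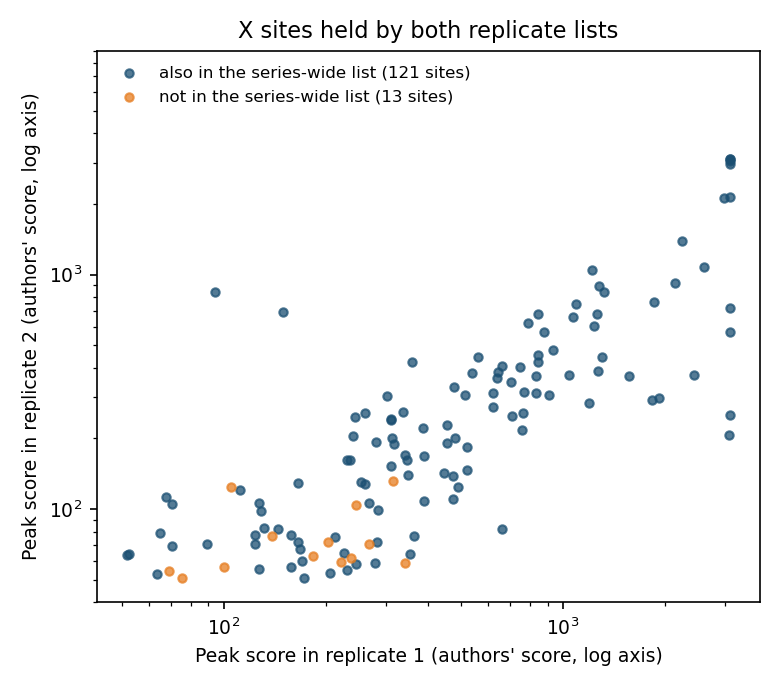
Peak score of the 134 X sites held by both replicate lists, replicate 1 against replicate 2, each the highest score of the site in that list on a log axis. The 13 sites that the series-wide list lacks, in orange, all score at or under 132 in replicate 2, while the 121 others reach 3100 in both. Most points follow a common rise, and the pair at the upper left are the sites scoring 94.4 and 149 in replicate 1.

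Along X, the number of sites in all 3 lists varied less between stretches than the number of other sites did. The left, central and right sections of X, each 33.3% of its length, held 40, 41 and 40 of the 121 sites in all 3 lists. In the 17 full bins of 1 Mb their number ran from 3 to 11 with a median of 7, and 14 bins held between 5 and 10. The variance of these counts was 0.646 times their mean. Sites placed at random give a ratio near 1, and whether the ratio on X differs from that was not tested. Sites outside all 3 lists ran from 3 to 39 per bin, with a variance 5.16 times their mean. Over the bins the 2 kinds of count had almost no rank relation (Spearman's rho = -0.07, 17 bins, as a description). On the autosomes the same ratio for sites in all 3 lists was 0.687 on I and between 1.39 and 2.57 on the other four. For sites outside all 3 lists it ran from 2.10 on II to 13.3 on III. It was thus the higher of the 2 ratios on I, III, IV and V as well, but not on II (2.10 against 2.32).

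The low ratio on X depended on scale and on close groups of sites. In bins of 0.5 Mb the ratio on X was 1.03, and with bins shifted by 0.5 Mb it was 0.952. When peaks within 1000 bp were joined it was 0.797 on X and between 0.760 and 1.76 on the autosomes, where III was then below X. Chromosome I was below X without the replicate 1 list, with 0.636 against 0.707, and in bins of 2 Mb, with 0.448 against 0.555. These settings, and the ratio itself, were chosen after the counts were seen, and the difference between chromosomes was not tested.

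The bins differed in what filled them. The fullest, bin 17 (16000001 to 17000000), held 44 sites, of which 30 were in replicate 1 alone and 5 in all 3 lists. Bin 8 (7000001 to 8000000) held 33, with 25 in replicate 1 alone and 3 in all 3 lists. By contrast, bin 7 (6000001 to 7000000) held the fewest sites, 10, and 7 of them were in all 3 lists. Bins 9 and 14 held the most sites in all 3 lists, with 11 of 34 and 10 of 35. The last bin, of under 1 Mb, held 19 sites and 1 in all 3 lists.

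**Figure D3:**
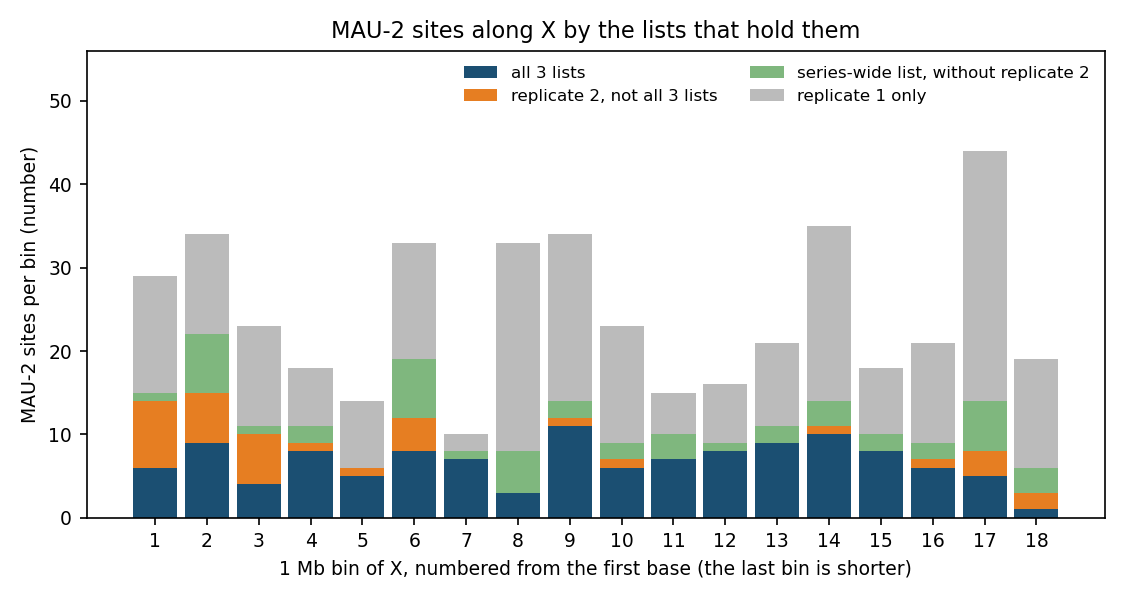
Number of MAU-2 sites in each 1 Mb bin of X, numbered from the first base, with the bars divided by the lists that hold the sites. The dark part (all 3 lists) stays between 3 and 11 in the 17 full bins. The grey part (replicate 1 alone) runs from 2 in bin 7 to 30 in bin 17, and the orange part (replicate 2 but not all 3 lists) is tallest in bins 1 to 3.

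Replicate 2 leaned to the left end of X under the main rule, but not clearly under every alternative. Of the replicate 2 sites, 65 of 156 (41.7%, 33.8 to 49.8) lay in the left section and 47 (30.1%, 23.1 to 38.0) in the right. On the autosomes 29.1% of its sites lay in the left section and 37.0% in the right. With peaks joined within 1000 bp the left share of replicate 2 sites on X was 40% (31.8 to 48.6). In the higher-scoring 50% of each list it was 39.1% (28.8 to 50.1). Both intervals reached below the left section's share of the length of X, so an even spread was not excluded there. Without the densest 1 Mb of each chromosome the left share was 43.9% (35.8 to 52.3). Replicate 1 on X had 123 of 400 (30.8%, 26.3 to 35.5) in the left and 152 (38.0%, 33.2 to 43.0) in the right, close to its autosomal 30.8% and 37.7%. The left section held 25 of the 35 replicate 2 sites that were not in all 3 lists, or 71.4% (53.7 to 85.4), compared with 58 of 176 on the autosomes (33.0%, 26.1 to 40.4). The first 3 Mb alone held 20 of the 35. Of the 18 sites of the series-wide list alone, 11 were in the left section (61.1%, 35.7 to 82.7), against 40 of 141 on the autosomes (28.4%, 21.1 to 36.6). Several left-section sites of both kinds lay within 5 kb of each other, so these intervals may be too narrow. Of the sites of replicate 1 alone, 97 of 234 (41.5%, 35.1 to 48.1) lay in the right section and 67 (28.6%) in the left, against 38.3% and 33.5% on the autosomes. Counting all sites, 310 of 440 (70.5%, 66.0 to 74.7) lay in the left or right section, near the 68.0% of the autosomes, which ran from 59.5% on III to 78.2% on I.

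Several of these left-section sites were neighbours. From 2055476 to 2063879, 10 sites lay within 8404 bp. Both replicates held 3 of them without the series-wide list, with scores of 314, 203 and 246 in replicate 1 and 132, 72.6 and 104 in replicate 2. Replicate 2 and the series-wide list shared 2 more, and the one from 2057820 to 2058417 scored 313 and 14.7 there while absent from replicate 1. The other 5 were in replicate 1 alone, and none of the 10 was in all 3 lists. In 5349 bp from 5046038 to 5051386, 9 sites were found, of which 4 were in the series-wide list alone and 1 in all 3 lists. Their scores were low in every list, at most 56.6 in replicate 1, 73.2 in replicate 2 and 7.01 in the series-wide list.

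The ends of X were marked by single peaks. The leftmost site ran from the first base to 352 and was in all 3 lists, with scores of 1829 in replicate 1, 292 in replicate 2 and 31.1 in the series-wide list. The rightmost, from 17718591 to 17718897, was in the series-wide list alone, and its score of 16.4 was the highest of the 18 such sites. Its last base is also the length of X used here. The nearest site in all 3 lists was 408 kb to its left. The other partial kinds are represented by their highest site, taken by series-wide score where that list holds it. In replicate 1 and the series-wide list it lay from 8969355 to 8970058 and scored 329 and 15.0. By replicate 1 score the highest of this kind was instead the site from 15226815 to 15228849, which scored 1509 and 14.7. In replicate 2 and the series-wide list it lay from 1375007 to 1375429 and scored 130 and 24.0, while the site from 2057820 to 2058417 was higher in replicate 2, with 313. In both replicates alone it lay from 53231 to 54324 and scored 341 and 59.1, and in replicate 2 alone from 1836374 to 1836979 with 77.3.

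Spacing was described for the full set and for the sites in all 3 lists. The latter are part of the full set, so longer distances between them are bound to follow. The median distance between midpoints of neighbouring X sites was 15.6 kb, with quartiles at 1.32 and 52.9 kb. Of the 439 distances, 166 (37.8%) were under 5 kb and 97 under 1 kb. Without the replicate 1 list, which leaves 208 X sites, the median distance was 48.9 kb. Between sites in all 3 lists the median was 105 kb, with quartiles at 35.3 and 220 kb. Only 8 of these 120 distances (6.67%, 2.92 to 12.7) were under 5 kb, compared with 65 of 392 on the autosomes (16.6%, 13.0 to 20.6) and with 13.5% to 20.8% on single autosomes. With peaks joined within 1000 bp these shares were 1.71% (0.208 to 6.04) on X and 4.91% (2.89 to 7.75) on the autosomes, and the intervals overlapped. The difference was not tested.

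**Figure D4:**
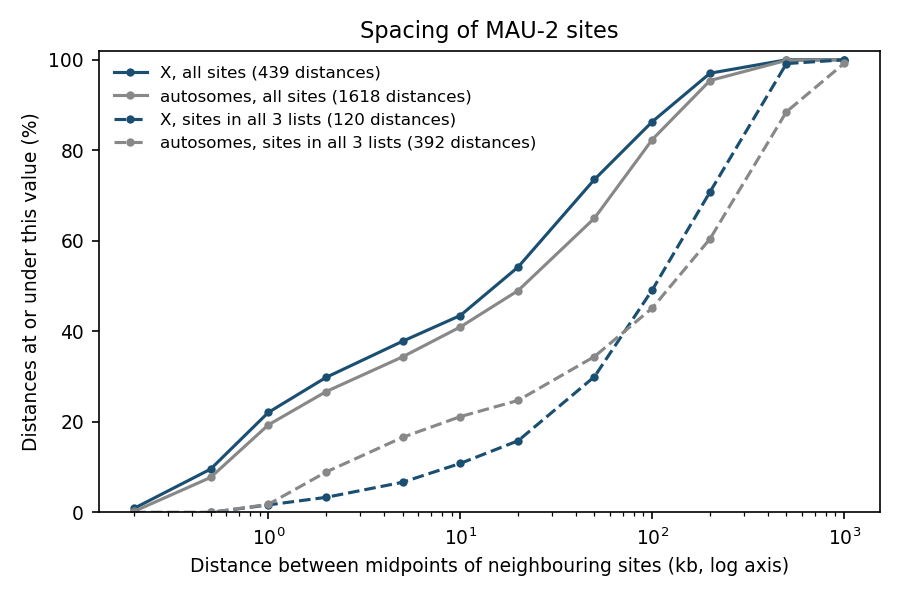
Cumulative share of distances between neighbouring MAU-2 sites (kb, log axis) for X (blue) and the autosomes (grey), for all sites (solid lines) and sites in all 3 lists (dashed lines), drawn at 12 set distances. At 5 kb the dashed line of X stands at 6.67% and that of the autosomes at 16.6%, while both solid lines stand above 30%.

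Close sites formed short runs. When neighbours under 5 kb apart were joined, 244 of the 440 X sites (55.5%) fell into 78 runs, against 51.6% of autosomal sites, with a median of 2 sites each, and 196 sites stood alone. Sites in all 3 lists made up 81 of the 196 lone sites (41.3%) and 40 of the 244 in runs (16.4%). On the autosomes these shares were 27.4% and 21.7%. A site in all 3 lists was held by 32 of the 78 runs (41.0%), against 39.5% of autosomal runs. Among sites in all 3 lists, 14 of the 60 with the higher series-wide scores had another site within 5 kb (23.3%, 13.4 to 36.0), and 26 of the 61 with lower scores did (42.6%, 30.0 to 55.9). The autosomes had 31.3% and 60.3%, in the same order.

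The longest run was almost entirely a replicate 1 feature. From 7351661 to 7361257, 15 sites lay within 9597 bp, all of them in replicate 1, 12 in replicate 1 alone, 3 in the series-wide list and 1 in replicate 2. Their replicate 1 scores ran from 53.0 to 635 with a median of 175. The highest, from 7353110 to 7354484, was 1375 bp wide and was the best-scoring X site of replicate 1 alone. The single site of the run in all 3 lists, from 7359583 to 7360791, scored 279, 58.6 and 4.13. The densest 100 kb of X, from 7307008 to 7378903, contained this run and held 19 sites, 1 of them in all 3 lists. For sites in all 3 lists the densest 100 kb held 4, from 1858761 to 1954405, where the densest of each autosome held from 4 on I to 8 on III.

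Some stretches were empty. No list held a peak between 9743998 and 10124332, where the midpoints of the bordering sites were 381 kb apart, or between 490150 and 865294, with 376 kb. For sites in all 3 lists the largest distance was 744 kb, between 490150 and 1233786, and 10 other sites lay inside it, 6 of them in replicate 1 alone.

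Set beside the autosomes, X had the highest density of sites of the 6 chromosomes. It carried 24.8 sites per Mb, against 19.7 on the autosomes together and 17.1 on V to 22.1 on IV singly, a ratio of 1.26 to the autosomes. For sites in all 3 lists X had 6.83 per Mb against 4.81, a ratio of 1.42, and single autosomes ran from 4.25 on I to 5.44 on III. In covered bases the difference was small, at 1.25% of X and 1.15% of the autosomes, and chromosome I had more, with 1.30%. X sites were somewhat narrower, with a median of 310 bp against 346 bp, and wide sites made up 2.95% of X sites against 4.07%. No test of density was made here, since close sites are not independent.

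**Figure D5:**
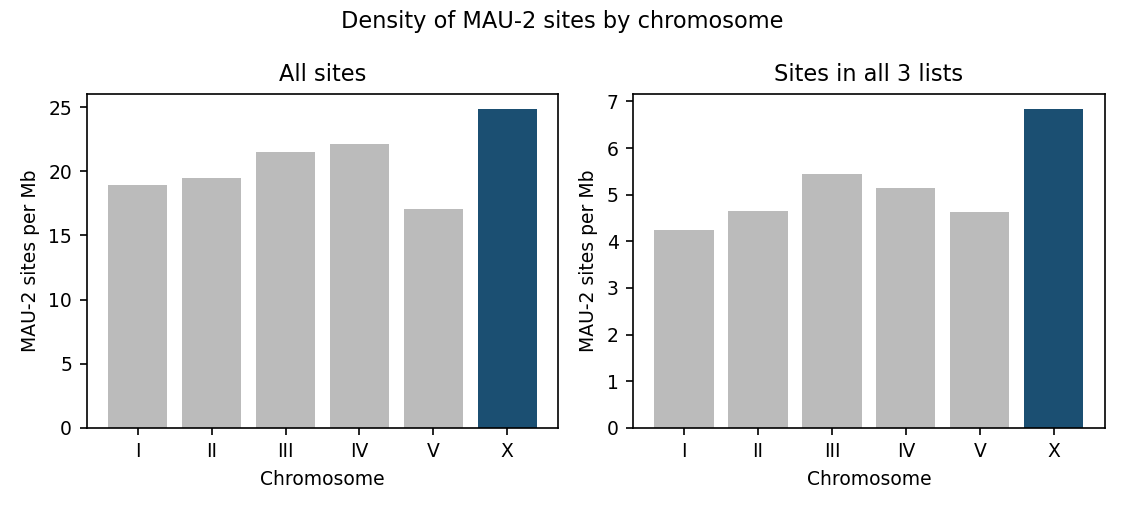
MAU-2 sites per Mb on each nuclear chromosome, for all sites (left) and for sites in all 3 lists (right), with X in blue and the autosomes in grey. X is the tallest bar in both panels, with 24.8 and 6.83 sites per Mb. The bars are single counts, without replicate error.

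X sites were more frequent among high series-wide scores than among low ones. They made up 34 of the 224 sites in the lowest series-wide class (15.2%, 10.7 to 20.6) and 65 of the 222 in the highest (29.3%, 23.4 to 35.7). The replicate lists showed no such rise beyond their intervals. In replicate 1 the X share was 24.0% in the lowest class and 21.3% in the highest, and in replicate 2 it was 21.9% and 24.7%, each pair with overlapping intervals. Among the 50 highest sites X held 10 in replicate 1, 9 in replicate 2 and 12 in the series-wide list. Among the 200 highest sites X held 44 in replicate 1 (22.0%), 51 in replicate 2 (25.5%) and 59 in the series-wide list (29.5%). For scale, the full replicate 1 list held 400 X sites and 1382 autosomal sites. Replicate 2 held 156 and 573, and the series-wide list 190 and 705. The densest 100 kb of II and of IV held 17 and 25 sites of the series-wide list alone. Their effect on the X share of the lowest series-wide class was not tested.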

How the data were processed

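Lists of MAU-2 ChIP-seq peaks from both replicates and from the whole series were used. The submitters' processing notes name BWA and the build ce10. Peaks came from MACS in the replicate lists and MACS v2 in the series-wide list on WormBase WS220, per the file headers and columns. The score of each peak is the authors' own, deposited without a named scale. How input, thresholds and pooling were handled is not given in the sources used here.

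Peaks sharing at least 1 bp were merged into sites, and mitochondrial peaks were left out. Chromosome length is the highest coordinate in any list. The share of sites in all 3 lists was compared by a two-sided Fisher's exact test at a threshold of 0.05, which treats sites as independent. All other values are descriptions, with exact intervals at 95%. The members and rules were chosen with earlier results of these data known. Regions named are the 10 highest-scoring sites, the 5 widest, the best of each list combination, both ends, and the largest distances and densest stretches. Those outside this rule are marked. The longest runs and fullest bins were also named after their values were seen. Merging and the test were checked on simulated data. The simulated sites lay far apart and were drawn independently, so close neighbours, as found on X, were not covered by this check. Alternatives covered merging distance, lists left out, score and region filters. Python 3.11.15, numpy 2.4.6, scipy 1.17.1 and matplotlib 3.10.9 were used.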

Additional observations from a re-analysis of the deposited data

How the results depend on the processing

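Of 49 alternatives, 33 left a result within its interval, on its side of the threshold or, for the number of sites and the variance ratio, within 1.5 times its value. Joining within 1000 bp left 324 X sites. The difference between X and autosomes in the share of sites in all lists passed the threshold with peaks joined within 1000 bp (7.17 points, Fisher's exact p = 0.015) and in the higher-scoring 50% of each list (10.3 points, p = 0.0062). It was 10.5 points without replicate 1 (Fisher's exact p = 0.0073) and 4.18 without replicate 2 (exact p = 0.096), and turned to -0.0707 without the series-wide list (exact p = 1), so its direction rests on that list. The cause was not tested. All lists held 36.4% of X sites with the 1000 bp joining, 38.7% in the higher-scoring 50%, and 67.3% and 34.7% without replicate 1 and replicate 2. The number of X sites was 208 without replicate 1 and 449 without replicate 2, since replicate 1 supplies most sites. The density ratio was 1.09 in covered bases and 1.42 for sites in all 3 lists, and 1.16 and 1.28 without replicate 1 and replicate 2. The outer share was 54.8% with the outer 25% at each end, where an even spread gives 50%, and 70.7% and 69.9% without either replicate. Median spacing was 29.4 kb with the 1000 bp joining, 105 kb for sites in all 3 lists, and 48.9 and 14.2 kb without replicate 1 and replicate 2. The variance ratio was 1.03 in bins of 0.5 Mb, and 0.707 and 0.681 without either replicate. The rank correlation of replicate scores ran from 0.77 to 0.81 in the settings tried. No paired analysis was possible because replicate numbers are shared only with inputs, whose files were not analysed here.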
